A study of Saccharomyces cerevisiae with 9 samples.

Results

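Pol I occupancy of the 35S ribosomal RNA gene of Saccharomyces cerevisiae was compared between late log and mid log phase, using all 6858 positions of 1 repeat and the 3 late log and 3 mid log libraries, 6 of the 9 in the series. All cultures were of 1 WT strain, of mating type MATa, with marker mutations in ade2, ura3, trp1, leu2, his3 and can1 and a tagged Pol I subunit from the allele RPA135-(HA)3-(His)7::TRP1, grown in YPD at 30 °C. Late log and mid log cultures differed in the optical density at harvest, and the series describes its libraries as biological replicates. No untagged strain was analysed here.

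RNA polymerase I (Pol I) makes a single long precursor, which is cut and trimmed into 18S, 5.8S and 25S rRNA. The external transcribed spacers (ETS 1, ETS 2) and the internal ones (ITS 1, ITS 2) are removed on the way and degraded. In native elongating transcript sequencing (NET-seq), Pol I is pulled down and the 3′ end of each attached RNA is read as the place of a polymerase. Mature rRNA is carried along in such pull-downs, so reads in 18S, 5.8S and 25S can come from both kinds of RNA, and an RNA left by a processing cut gives a 3′ end at the cut. Values are reads scaled to 1000000 per library (RPM), so that each is a share of the repeat's reads and not an amount of Pol I per cell.

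The depth recovered from the values was 1298754 to 2206297 reads in late log and 6066590 to 7307421 reads in mid log. The mid log libraries had a sequencing run to themselves, so run and subphase cannot be told apart, and values of early log replicate 1, which shared the run of the late log libraries, are given beside some of the results. Mid log replicate 1 stood apart from the other mid log libraries. Its Spearman's rho across positions was 0.96 with mid log replicate 2 and 0.95 with replicate 3, against 0.99 between replicates 2 and 3, and 0.99 for every pair of late log libraries. In the spacers alone it was 0.93 with mid log replicate 2 and 0.91 with replicate 3, against 0.95 between these. Late log libraries were at 0.85 to 0.89 there, below the mid log pairs. They were also the shallower libraries, and the effect of depth on these values was not tested. For some of the results that rest on mid log replicate 1, values without it are given too.

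The highest position of the repeat in mid log was far lower in late log. Position 2970, an A in the 3′ part of 5.8S (chromosome XII 464600, minus strand, R64 assembly), held 5929, 4722 and 4955 RPM in the late log libraries, against 32395, 37028 and 43421 RPM in the mid log libraries. Each late log library was below every mid log library. The mean was 5202 ± 640.5 RPM in late log and 37615 ± 5536 RPM in mid log (SD, n = 3 each), so this 1 nucleotide took 0.520% of the reads in late log and 3.76% in mid log. The log2 change was -2.85 ± 0.75 (SE, limma adjusted p = 0.0146). It did not pass in limma when any late log library or mid log replicate 2 was left out (adjusted p = 0.0553 to 0.206), while edgeR on the recovered reads gave an adjusted p of 7.43e-04. There were 791 RPM in early log replicate 1. The sequence around it is shown because it carries the largest difference in RPM of the named positions, with the RNA 3′ end in capitals.
position 2970: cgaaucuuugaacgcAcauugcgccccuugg

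Over the 7 regions, late log differed from mid log in 5 without overlap of libraries. ETS 2 was higher in late log, with 0.998%, 1.23% and 1.13% of the reads, against 0.544%, 0.623% and 0.629% in mid log, a log2 difference of 0.90. ITS 1 was lower in late log, with 0.461%, 0.527% and 0.442%, against 1.00%, 1.89% and 1.70% in mid log (log2 difference -1.64). Without the 20 positions at each junction ITS 1 overlapped, with 0.359%, 0.433% and 0.339% in late log, against 0.740%, 0.312% and 0.275% in mid log (log2 difference -0.09, exact permutation p = 1). The mature region 5.8S was lower too, with 4.94%, 4.74% and 5.43% in late log, against 6.86%, 7.38% and 8.06% in mid log (log2 difference -0.56). The 25S region was slightly higher, at 64.8% to 66.2% in late log and 59.6% to 63.0% in mid log (log2 difference 0.09). Without the 10 highest positions of the repeat, 25S overlapped (exact permutation p = 0.80). It then held 66.6%, 65.1% and 65.7% of the remaining reads in late log, against 62.2%, 65.6% and 67.3% in mid log. ITS 2 held 0.377%, 0.408% and 0.371% in late log, against 1.02%, 0.430% and 0.414% in mid log (log2 difference -0.56, or -0.13 without mid log replicate 1). Each of these 5 had an exact two-sided permutation p of 0.10, the smallest that 3 against 3 allows, and 0.14 after adjustment over the 7 regions.

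ETS 1 and 18S overlapped between the subphases. ETS 1, the first stretch that Pol I transcribes, held 0.707%, 0.905% and 0.518% of the reads in late log, against 3.36%, 0.702% and 0.565% in mid log (exact permutation p = 0.70). Mid log replicate 1 was far above the other 5 libraries, and the log2 difference of -0.67 turned to 0.14 without that library. The 18S region held 26.4% to 27.4% in late log and 25.6% to 27.6% in mid log (exact permutation p = 0.90). The plot of region shares shows these values for each library. Counting error is far below these spreads, as the widest 95% Wilson interval of a region share reached 0.0819 percentage points to either side.

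**Figure D1:**
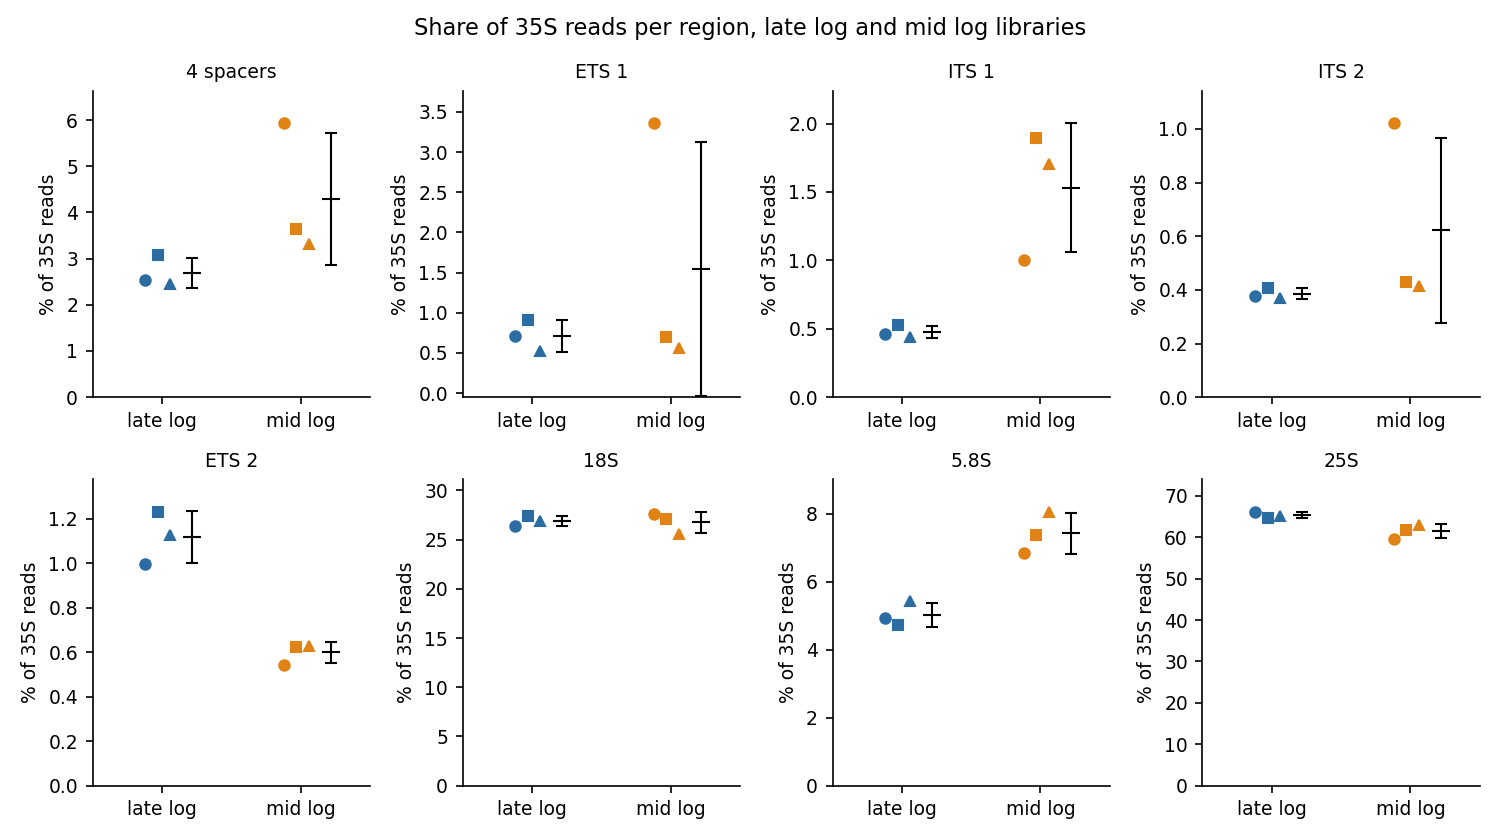
Share of 35S reads (y axis, percent) in the 4 spacers together and in each of the 7 regions, for 3 late log (blue, left) and 3 mid log (orange, right) libraries, with circles, squares and triangles for replicates 1, 2 and 3 and bars for mean ± SD. ETS 2 and 25S were higher in late log, ITS 1 and 5.8S lower, and mid log replicate 1 lies far above all others in ETS 1 and ITS 2.

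The 4 spacers together held 2.54%, 3.07% and 2.46% of the reads in late log, against 5.93%, 3.65% and 3.31% in mid log. The libraries did not overlap, and the log2 difference was -0.63 (exact permutation p = 0.10), or -0.38 without mid log replicate 1. Away from the mature ends the picture differed. Without the 20 positions at each junction, the spacers held 1.32%, 1.62% and 1.07% in late log, against 4.85%, 1.22% and 1.02% in mid log (exact permutation p = 0.90), and the log2 difference of -0.46 turned to 0.24 without mid log replicate 1. The gap between the subphases over whole spacers therefore lay within 20 positions of the junctions for mid log replicates 2 and 3. Early log replicate 1 had 3.54% in the same measure.

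The reads within ETS 1 were spread differently, and this did not rest on mid log replicate 1. The last 350 positions of ETS 1 took 38.8%, 40.5% and 41.8% of the ETS 1 reads in late log, against 33.7%, 32.9% and 33.8% in mid log. Every late log library was above every mid log library, and the difference was 6.87 percentage points (exact permutation p = 0.10, 0.35 adjusted over 7 measures of this kind), or 6.16 to 7.64 points with any 1 library left out. Early log replicate 1 had 45.7%.

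At the 3′ end of 18S, occupancy was lower in late log on both sides of the junction with ITS 1. All 7 positions tested within 5 nt of the junction were called lower, where 22.2% of all 6722 tested positions were called lower and 38.8% were called in either direction (limma, adjusted p under 0.05). The libraries did not overlap at 6 of the 7, but did at position 2502, and edgeR called 6 of the 7 lower. Position 2503 (G, XII 465067), the third nucleotide of ITS 1, held 523, 373 and 541 RPM in late log, against 1031, 9967 and 9073 RPM in mid log. Positions 2504 and 2505 followed it, with 119.8 to 134 RPM and 17.97 to 25.4 RPM in late log, against 443 to 3878 RPM and 125 to 982 RPM in mid log. No libraries overlapped at these positions, but mid log replicate 1 lay between the late log libraries and the other mid log libraries at each. Their log2 changes were -3.26 ± 0.73, -3.83 ± 0.68 and -4.48 ± 0.65 (SE, limma adjusted p = 0.00668, 0.00208 and 7.68e-04), the last being the largest fall of the repeat among positions of at least 10 RPM. The 3 positions had 257, 127 and 59.7 RPM in early log replicate 1.

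On the 18S side, position 2495 (U, XII 465075) held 1179, 922 and 1306 RPM in late log, against 3609, 3753 and 3246 RPM in mid log. It did not overlap, and mid log replicate 1 was like the other mid log libraries here (log2 change -1.65 ± 0.20 SE, limma adjusted p = 3.68e-04). Early log replicate 1 had 1004 RPM there. Position 2498 fell by 0.95 on the log2 scale (limma adjusted p = 0.0143), a call that was lost without late log replicate 2 (adjusted p = 0.0889) or mid log replicate 2 (adjusted p = 0.0614). At 2498 early log replicate 1 had 3930 RPM, above every mid log library. The 10 positions around the junction together took 0.370%, 0.235% and 0.347% of the reads in late log, against 0.594%, 2.07% and 1.91% in mid log (log2 difference -2.09, exact permutation p = 0.10, adjusted 0.20 over 6 junctions). Positions 2499 to 2501 were listed at 0 in all 6 libraries, as were 3018 to 3020 at the end of 5.8S and 6647 to 6649 at the end of 25S.

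At the 3′ end of 25S the direction was opposite. The 10 positions around its junction with ETS 2 took 2.12%, 2.41% and 2.77% of the reads in late log, against 1.22%, 1.53% and 1.55% in mid log, without overlap (log2 difference 0.76, exact permutation p = 0.10, adjusted 0.20). Position 6646 (G, XII 460924), next to the last nucleotide of 25S, held 7984, 8707 and 10334 RPM in late log, against 3356, 3735 and 3932 RPM in mid log. It was the highest position of the repeat in late log. The log2 change was 1.29 ± 0.38 (SE, limma adjusted p = 0.0227), which did not pass without any 1 of the late log libraries or mid log replicate 2 (adjusted p = 0.0547 to 0.129). edgeR gave an adjusted p of 0.00675, and early log replicate 1 had 2997 RPM.

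The rise went on into ETS 2, where the precursor is cut by the RNase III enzyme Rnt1 behind the end of 25S. The 12 positions from 6651 to 6662 were all called higher, 1 unbroken run with a median log2 change of 1.65, and together held 7197, 8691 and 7693 RPM in late log, against 2422, 3319 and 3431 RPM in mid log. Position 6660 (U, XII 460910), 13 nt into ETS 2, had the largest rise of the repeat by the naming rule, with 335, 403 and 308 RPM in late log, against 51.1, 78.7 and 69.9 RPM in mid log. The groups did not overlap, and the log2 change was 2.39 ± 0.17 (SE, limma adjusted p = 6.47e-05). Early log replicate 1, of the late log run, had 87.5 RPM, while early log replicates 2 and 3, of another run, had 420 and 584 RPM. In the same run, position 6661 (C) had 1393, 1655 and 1222 RPM in late log, against 329.7, 514 and 507 RPM in mid log (log2 change 1.68 ± 0.19 SE, limma adjusted p = 2.86e-04).

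Just behind this run the direction turned. Positions 6664 and 6665 lie among the 35 residues annotated for Rnt1, and held 11.6 to 18.6 RPM and 10.01 to 25.8 RPM in late log, against 30.2 to 44.8 RPM and 37.6 to 49.95 RPM in mid log. Their log2 changes were -1.27 ± 0.28 and -1.36 ± 0.33 (SE, limma adjusted p = 0.00643 and 0.0104). They were among 3 of the 35 residues that were called, all lower (8.57%). Over all tested positions 38.8% were called and 22.2% were called lower, and over ETS 2 these shares were 14.3% and 2.68%. The median change of the 35 was 0.00820. Together the 35 held 0.0375%, 0.0387% and 0.0279% of the reads in late log, against 0.0768%, 0.0368% and 0.0278% in mid log, and the groups overlapped (exact permutation p = 0.90). The terminator T1 at position 6739, named for its annotation, held 63.5, 73.1 and 55.4 RPM in late log, against 45.7, 31.2 and 23.5 RPM in mid log. It did not overlap (log2 change 0.96 ± 0.25 SE, limma adjusted p = 0.0141), but was not called without late log replicate 2 (adjusted p = 0.0670). Early log replicate 1 had 73.6 RPM at T1. Away from the first 20 positions, ETS 2 held 0.0693%, 0.0722% and 0.0554% of the reads in late log, against 0.117%, 0.0470% and 0.0339% in mid log, and the groups overlapped.

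The sequences at both junctions are shown because the calls run in blocks that differ in direction between them. Each line holds the last 20 nt of the mature region and the first 20 nt of the spacer, and capitals mark positions with a limma adjusted p under 0.05 in either direction.
18S/ITS 1 junction, chromosome XII 465050 to 465089: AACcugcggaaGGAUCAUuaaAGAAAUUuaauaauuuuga
25S/ETS 2 junction, chromosome XII 460903 to 460942: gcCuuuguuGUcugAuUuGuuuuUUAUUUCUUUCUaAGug
In the first, the block GGAUCAU of 18S ends with the 4 lowered positions 2495 to 2498, the A before them (2494) was higher in late log, and AGAAAUU of ITS 1 was lower throughout, while in the second the U-rich block UUAUUUCUUUCU is the raised run of ETS 2.

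At the 3′ end of 5.8S, the junction with ITS 2 took 0.666%, 0.587% and 0.729% of the reads in late log, against 0.679%, 0.690% and 0.748% in mid log, and the groups overlapped (exact permutation p = 0.40). On its ITS 2 side alone late log was lower, with 0.115%, 0.116% and 0.128% of the reads in late log, against 0.206%, 0.203% and 0.190% in mid log, without overlap (log2 difference -0.74, exact permutation p = 0.10, adjusted 0.171). Position 3023, the highest of ITS 2, fell to 472, 459 and 523 RPM in late log, against 838, 1064 and 999 RPM in mid log (log2 change -0.99 ± 0.13 SE, limma adjusted p = 4.70e-04). At the start of 25S, positions 3255 and 3256 were called higher. The junctions at the start of 18S and at the start of 5.8S held at most 0.0380% of the reads in any of the 6 libraries.

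**Figure D2:**
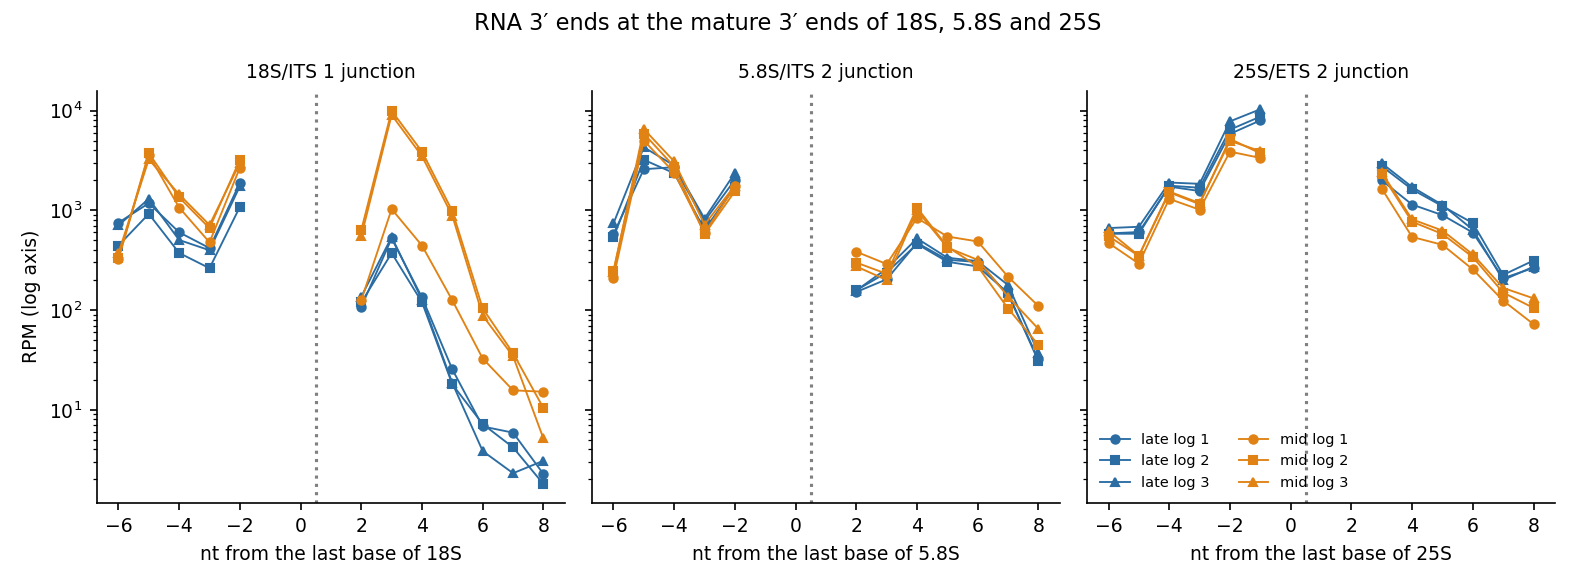
RPM (y axis, log scale) at each position near the ends of 18S, 5.8S and 25S, by distance from the last nucleotide of the mature region (x axis, nt), with 1 line per library in late log (blue) and mid log (orange), and gaps where the value is 0. Late log lies below mid log on both sides of the 18S end, except 6 nt before it, where late log is higher, and at position 2502, where libraries overlap. At the 5.8S end late log lies above or below mid log by position. At the 25S end late log is above mid log at most positions, for example at 7984 to 10334 against 3356 to 3932 RPM at position 6646.

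Position by position, 2607 of the 6722 tested positions (38.8%) passed the limma threshold. Late log was the higher subphase at 1115 (16.6%) and the lower one at 1492 (22.2%). At 50.9% of tested positions the libraries of the subphases did not overlap. The edgeR test on the recovered reads, which came out whole at 99.9% to 100% of positions, called 2225, and 2130 of the limma calls were shared with the same direction. The median change over all tested positions was -0.14 on the log2 scale, and 0.00865 without mid log replicate 1. Most changes were moderate, as 210 of the higher and 510 of the lower positions passed a change of 1 on the log2 scale, and 4 and 70 passed a change of 2.

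The mature regions carried nearly all calls, with 2540 of their 5348 tested positions called (47.5%). Over all tested positions 38.8% were called, and in the spacers 4.88%. The spacers make up 21.9% of positions and held 2.46% to 5.93% of the reads. Among positions of at least 10 RPM, 53 of 531 were called in the spacers, against 2692 of 5812 over all regions. In 5.8S 65 of 156 tested positions were higher and 31 lower, so that 61.5% were called and the region's median change was 0.26, although its share of reads was lower. Without the 10 highest positions of the repeat, the 5.8S region took 3.97%, 3.85% and 4.40% of the remaining reads in late log, against 3.07%, 3.05% and 3.01% in mid log. In 25S 695 of 3395 were higher and 942 lower, and in 18S 333 of 1797 were higher and 474 lower. ETS 2 had 13 higher and 3 lower of 112 tested, ITS 1 had 7 and 11 of 358, ITS 2 had 1 and 7 of 231, and ETS 1 had 1 and 24 of 673.

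In the 4 spacers 67 of 1374 tested positions were called (4.88%), 22 higher and 45 lower. Over all tested positions 38.8% were called, 16.6% higher and 22.2% lower. Of the spacer calls, 26 were among the 111 tested positions within 20 positions of a junction (23.4%). The other 41 were among 1263 tested spacer positions (3.25%). Without mid log replicate 1 the count of spacer calls was 242, with 182 higher and 60 lower, so most calls were then higher. All 67 remained in the same direction. The falls in ETS 1 lay mainly in its first 350 positions (18 of 24). Position 377 (U, XII 467193) in ETS 1 fell to 17.2, 32.3 and 14.6 RPM in late log, against 546, 109 and 101 RPM in mid log. Its level was 317 RPM in early log replicate 1. Its log2 change was -3.12 ± 0.58 (SE, limma adjusted p = 0.00272), or -2.33 without mid log replicate 1. Among spacer positions away from junctions, 2574 in ITS 1 was higher, with 39.4, 49.1 and 32.3 RPM in late log, against 27.0, 7.80 and 11.1 RPM in mid log (log2 change 1.5 ± 0.41 SE, limma adjusted p = 0.0177). Without late log replicate 2 this did not pass (adjusted p = 0.0828), nor without late log replicate 1 or mid log replicate 2. Early log replicate 1 had 34.4 RPM at 2574.

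The highest positions of ETS 1 did not pass with all 6 libraries in the fit without a replicate block. Position 80 held 221, 289 and 165 RPM in late log, against 1436, 366 and 216 RPM in mid log (limma adjusted p = 0.146) and position 78 held 199.9, 228 and 127.8 RPM in late log, against 1159, 269.9 and 208 RPM in mid log (limma adjusted p = 0.125). Late log and mid log libraries overlapped at both. Without mid log replicate 3 both passed in limma (adjusted p = 0.0190 and 0.0306). Position 78 also passed in limma with the replicate block (adjusted p = 0.0437), although the replicate numbers did not pair the libraries. In 18S, position 1552 held 1312, 1377 and 1428 RPM in late log and 1291, 1373 and 1133 RPM in mid log. The 25S position 5158 was also close, with 6808, 4692 and 4512 RPM in late log and 4722, 5564 and 5123 RPM in mid log.

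Inside the mature regions, named positions changed by several-fold. Position 4326 (A, XII 463244) in 25S held 1919, 2057 and 2245 RPM in late log, against 389.7, 367.5 and 520.2 RPM in mid log. It did not overlap, and its log2 change was 2.30 ± 0.16 (SE, limma adjusted p = 6.47e-05), with 415 RPM in early log replicate 1. Position 3469 (G) held 844, 1278 and 1505 RPM in late log, against 218, 335 and 445 RPM in mid log, with 119.5 RPM in early log replicate 1. Positions 3596, 4758, 3629 and 3286 of 25S made up the rest of the 10 largest rises outside ETS 2, with log2 changes of 1.83 to 2.08. Early log replicate 1 lay within the mid log range at 4326 and 4758, below it at 3596 and 3469, and above it at 3629 (95.3 RPM) and 3286 (156 RPM), where it was still under every late log library. Positions 3596, 3629 and 3286 belonged to longer raised runs.

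The clearest fall in 18S was at position 1767 (C, XII 465803), with 89.8, 98.2 and 84.7 RPM in late log, against 888, 707 and 709 RPM in mid log. The groups lay far apart, with a log2 change of -3.06 ± 0.12 (SE, limma adjusted p = 3.11e-06), and early log replicate 1, with 60.3 RPM, was near the late log libraries. Position 1894 (A) of 18S held 12.7, 16.2 and 10.01 RPM in late log, against 307, 88.0 and 84.8 RPM in mid log. Positions 4058 and 5892 of 25S had log2 changes of -2.94 and -2.99, and early log replicate 1, at 115 and 54.3 RPM, lay above the mid log libraries at both. Position 4058 held 8.16, 7.79 and 5.39 RPM in late log, against 73.0, 64.7 and 47.1 RPM in mid log. Position 5892 held 2.72, 1.80 and 1.54 RPM in late log, against 21.4, 20.4 and 26.9 RPM in mid log. In late log replicates 2 and 3 this was at most 3 reads. Over all tested positions early log replicate 1 was nearer to mid log than to late log at 62.2%, and the share was 61.5% among positions called higher and 68.8% among those called lower. The windows around the leading single positions are shown with the 3′ end in capitals, the first 3 raised and the others lowered in late log.
position 4326: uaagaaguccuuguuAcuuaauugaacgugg
position 3596: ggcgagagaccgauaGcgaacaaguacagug
position 4758: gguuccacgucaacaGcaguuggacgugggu
position 1767: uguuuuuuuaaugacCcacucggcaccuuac
position 1894: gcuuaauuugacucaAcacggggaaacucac
position 4058: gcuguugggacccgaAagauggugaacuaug

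**Figure D3:**
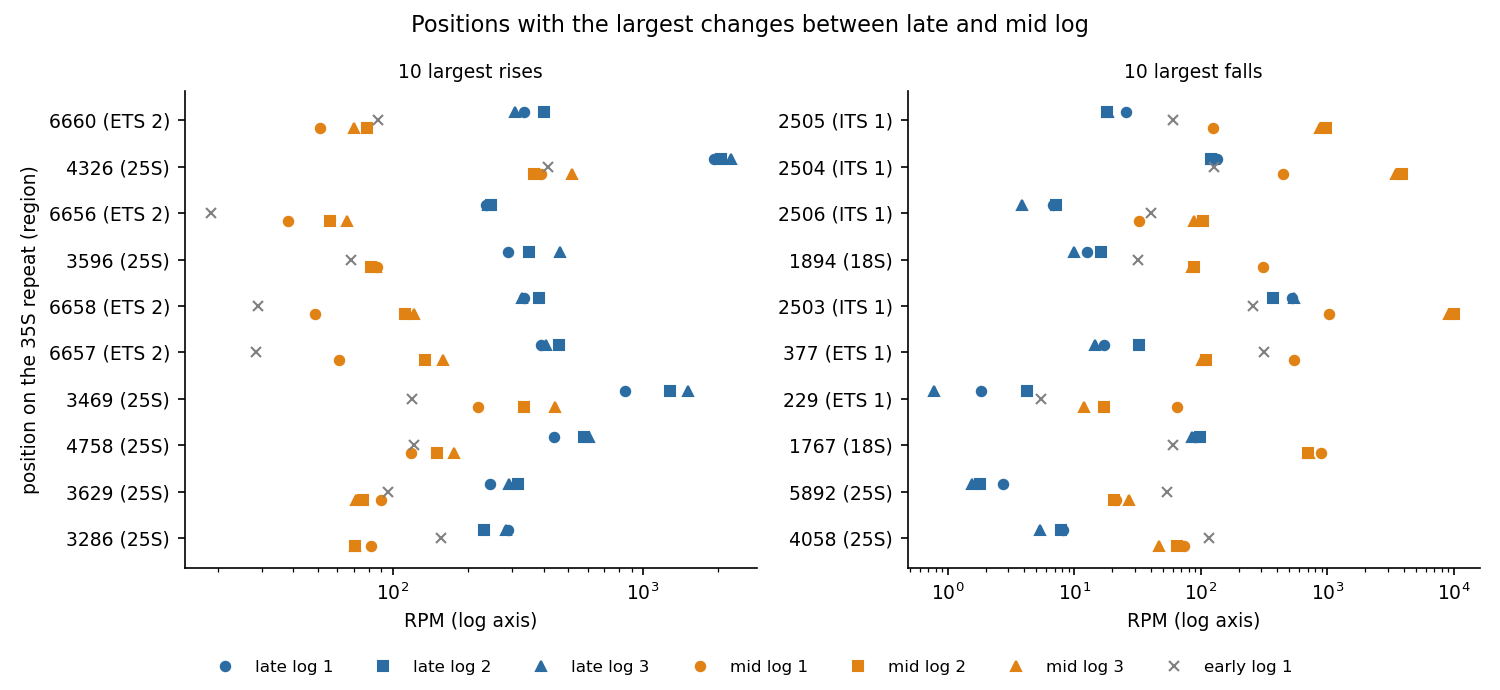
RPM (x axis, log scale) at the 10 positions with the largest rise (left) and the 10 with the largest fall (right), given by position on the repeat and region, for late log (blue, upper) and mid log (orange, lower) libraries and early log replicate 1 (grey cross). At 4326 late log has 1919 to 2245 RPM and mid log 367.5 to 520.2 RPM, and at 2503 to 2506 mid log replicate 1 lies between late log and the other mid log libraries.

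Calls also ran together. The 1115 raised positions formed 577 runs of neighbours, 51 of them of 5 or more positions, and the 1492 lowered positions formed 767 runs, 50 of them of 5 or more. The longest raised run spanned positions 3614 to 3649 of 25S, 36 nt, with a summed 18285, 21668 and 20305 RPM in late log, against 10791, 11024 and 10293 RPM in mid log. The longest lowered run spanned 4664 to 4686 of 25S, 23 nt, with 891, 777 and 735 RPM in late log, against 2105, 1993 and 1791 RPM in mid log. No libraries overlapped in either run, but runs were built from called positions, so this is not further evidence. In 5.8S, the 19 positions from 2887 to 2905 were raised, with 5304 to 6336 RPM in late log and 2472 to 3024 RPM in mid log, while the 14 positions from 2989 to 3002 were lowered, with 514 to 659.5 RPM in late log and 1389 to 1473 RPM in mid log. The longest run in each direction is printed, as the longest stretch that moved together, with the run in capitals.
positions 3614 to 3649, chromosome XII 463921 to 463956 in capitals: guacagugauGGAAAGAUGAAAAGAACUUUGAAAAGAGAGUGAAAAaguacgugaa
positions 4664 to 4686, chromosome XII 462884 to 462906 in capitals: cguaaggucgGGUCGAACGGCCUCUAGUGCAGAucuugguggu

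In windows of 100 positions, 32 of 69 (46.4%) were called, 17 higher and 15 lower (limma, adjusted p under 0.05). The largest fall was in the first window of ITS 1 (positions 2501 to 2600, log2 change -2.69 ± 0.41 SE), and the largest rise in the window that spans the end of 25S (6601 to 6700, 0.61 ± 0.10 SE). Within 25S raised and lowered windows were interspersed, with 11 raised and 8 lowered of 33. Side by side, positions 4301 to 4400 held 26690 to 27631 RPM in late log, against 17477 to 19208 RPM in mid log, and positions 4401 to 4500 held 14857 to 15254 RPM in late log, against 20447 to 20723 RPM in mid log. None of the 7 windows of ETS 1 was called, with adjusted p from 0.227 to 0.848 in limma. Without mid log replicate 1 the last of them, positions 601 to 700, was higher by 1.07 on the log2 scale (limma adjusted p = 3.30e-04), while the first, positions 1 to 100, was at -0.19.

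**Figure D4:**
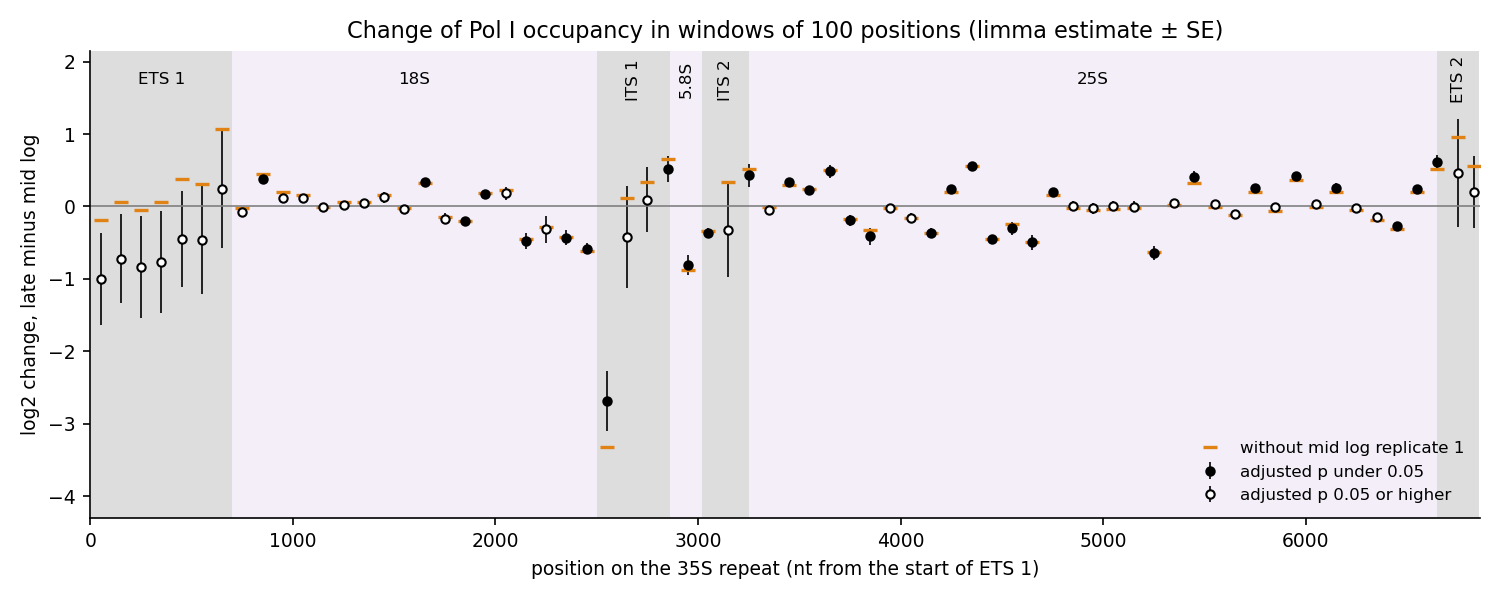
Log2 change of summed RPM, late minus mid log (y axis), in windows of 100 positions along the 35S repeat (x axis, nt), as limma estimate ± SE, filled where the adjusted p is under 0.05, with orange bars for the estimate without mid log replicate 1 and grey bands for the spacers. The windows of 18S and 25S barely move without that library, those of ETS 1 move up, and the first window of ITS 1 is the lowest at -2.69.

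The shares of reads with C or A at the RNA 3′ end separated the subphases in every mature region. The share ending in U overlapped between the groups in 18S and in 25S (exact permutation p = 0.20 in each). In 25S, 17.03%, 15.7% and 15.6% of reads ended in C in late log, against 20.4%, 21.5% and 22.3% in mid log. In 18S the same share was 14.8%, 14.0% and 14.2% in late log, against 18.4%, 19.8% and 20.2% in mid log. Reads ending in A were more frequent in late log in both, with 34.6% to 36.3% in late log and 30.8% to 31.8% in mid log for 25S, and 36.7% to 38.3% and 32.8% to 34.0% for 18S. Neither base overlapped between the groups in either region, and each test had an exact permutation p of 0.10, or 0.114 adjusted over 16. The changes were -5.32 (C) and 4.21 (A) percentage points in 25S and -5.16 (C) and 4.24 (A) points in 18S, and kept their sign without the highest 1% of positions, without the positions at the junctions and without any 1 library. Early log replicate 1 had 17.7% (C) and 31.3% (A) in 25S, and 19.1% (C) and 34.8% (A) in 18S.

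In the spacers the bases at the junctions dominated. Over whole spacers, 15.6%, 15.1% and 13.0% of reads ended in G in late log, against 24.9%, 35.8% and 35.1% in mid log, and 42.4%, 42.7% and 48.5% ended in U in late log, against 28.7%, 25.1% and 26.4% in mid log. Reads ending in A were 26.3%, 27.2% and 23.6% in late log, against 32.3%, 29.9% and 29.3% in mid log, and those ending in C were 15.7%, 14.97% and 14.8% in late log, against 14.1%, 9.16% and 9.22% in mid log. Without the 20 positions at each junction, a measure added after the data were seen, U was 20.2% to 21.0% in late log and 21.9% to 23.2% in mid log, and G overlapped. The share of C in these inner spacer positions was 11.8%, 11.3% and 12.2% in late log, against 13.9%, 14.95% and 14.9% in mid log, and that of A was 41.6%, 42.6% and 42.5% in late log, against 35.1%, 38.1% and 39.1% in mid log. In these inner positions A and C shifted in the same direction as in 18S and 25S, without overlap, while over whole spacers both shifted the other way. In 5.8S, reads ending in A were 35.5% to 37.0% in late log and 59.5% to 64.2% in mid log. Without its highest 1% of positions, which include 2970, they were 30.2% to 31.8% in late log and 26.2% to 27.1% in mid log, and those ending in C were 24.4% to 25.5% in late log and 29.3% to 32.5% in mid log.

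**Figure D5:**
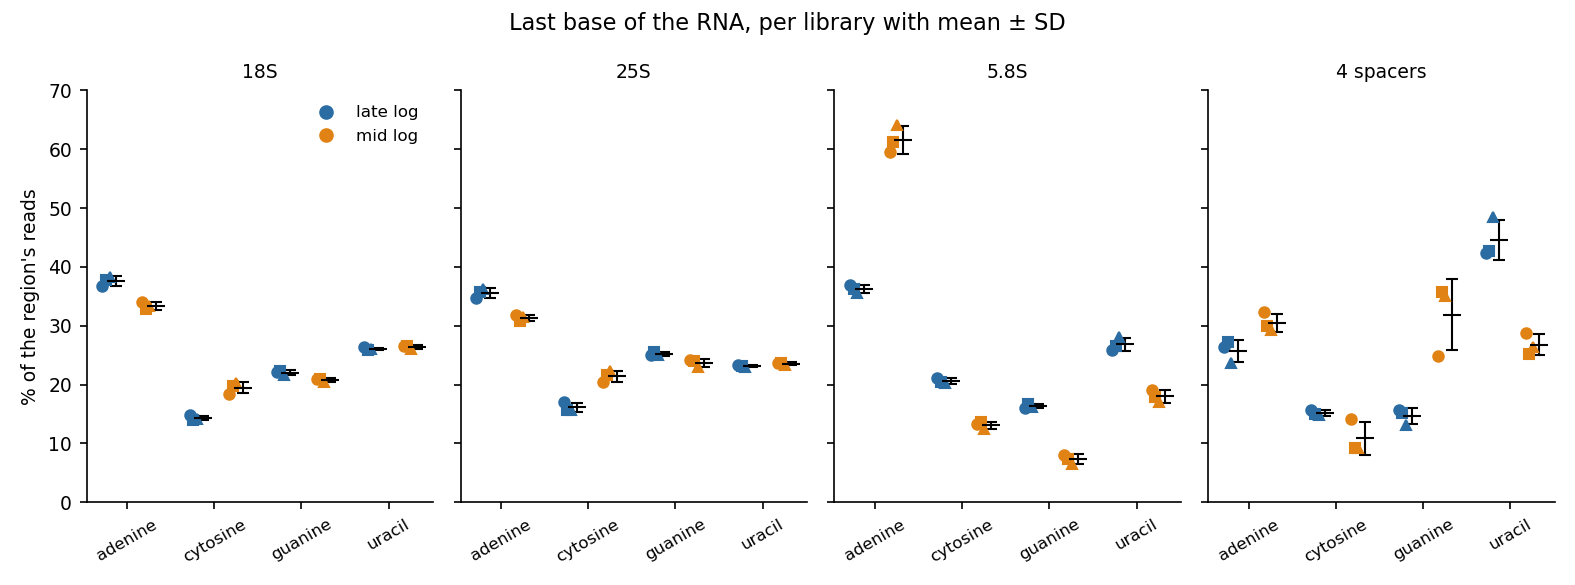
Share of a region's reads (y axis, percent) by the base at the RNA 3′ end in 18S, 25S, 5.8S and the 4 spacers, for late log (blue, left) and mid log (orange, right) libraries, with circles, squares and triangles for replicates 1, 2 and 3 and bars for mean ± SD. Cytosine is lower and adenine higher in late log in 18S and 25S, while adenine in 5.8S, where position 2970 lies, is lower at 35.5% to 37.0% against 59.5% to 64.2%.

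The same held over positions. Of the 1265 tested positions with a C, 600 were called lower (47.4%) and 67 higher (5.30%), against 22.2% and 16.6% of all tested positions. At A, 398 of 1811 were higher (21.98%) and 284 lower (15.7%), at G 368 of 1786 were higher (20.6%) and 292 lower (16.3%), and at U 282 of 1860 were higher (15.2%) and 316 lower (16.99%). In edgeR 504 of the C positions were lower and 51 higher, and in limma without mid log replicate 1 the counts were 645 and 76. The flanks differed as well. The base after the 3′ end was C at 32.1% of raised and 13.3% of lowered positions, where 18.8% of tested positions had it, and the base before it was U at 35.3% of raised and 17.02% of lowered positions, against 27.8% of those tested. These shares are given without a test, since calls ran together at neighbouring positions, which were therefore not taken as independent.

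Position 3286, an A directly before a C, lies 35 nt into 25S and rose to 287, 231 and 283 RPM in late log, against 82.1, 70.5 and 70.6 RPM in mid log (log2 change 1.83 ± 0.13 SE, limma adjusted p = 6.47e-05).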

How the data were processed

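The authors removed duplicate reads with Fqtrim, trimmed with Cutadapt 3.4, aligned to the R64 assembly with STAR 2.7.3a and counted read ends that mark RNA 3′ ends, per strand, with BEDTools 2.28.0. The values they deposited are RPM per position of the 35S repeat, scaled to the reads up to the terminator T1, and the deposited tables also hold the authors' own means, intervals, ratios and p-values, which were not used. RPM divided by the smallest value above 0 of its library gave whole reads at 99.9% to 100% of positions (tolerance 0.001), and a count of 0 allows 0.411 to 2.31 RPM (3 reads). Intervals cover counting error only. The assembly holds 2 copies of the repeat, and reads cannot be assigned to one of them.

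Of 6858 positions, the 6722 that averaged 1 RPM or more were tested on log2(RPM + 1), late minus mid, with limma 3.58.1 (lmFit, eBayes with trend, R 4.3.3), an adjusted p (Benjamini-Hochberg) under 0.05 making a call. Fold changes on this scale understate the change of low positions. edgeR 4.0.16 and DESeq2 1.42.0 on the recovered reads were alternatives. Shares per library were compared on the log2 scale, and shares of bases, of concentration and of ETS 1 in percentage points, by exact permutation (two-sided, 20 ways of assigning the libraries). Positions named are the 3 highest per region, the 10 largest rises and 10 largest falls called without overlap at 10 RPM or more, and the 2 largest of each kind per spacer. The groups and rules were chosen with earlier results of these data known. The fit was first tested on simulated data with known changes. Measures without 20 positions at each junction for bases and for spacer calls were added after the data were seen.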

Additional observations from a re-analysis of the deposited data

How the results depend on the processing

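The count of changed positions stayed within 1.5 times of 2607 under every alternative (1867 by least squares on RPM to 2692 at 10 RPM or more, and 1913 to 2985 with 1 library left out). The 67 spacer positions became 112 in DESeq2 (26 higher, 86 lower), 23 by least squares (19 higher, 4 lower), 32 with RPM scaled to spacer reads alone (15 higher, 17 lower) and 41 without the positions at junctions (10 higher, 31 lower), the last added after the data were seen. With 1 library left out they ranged from 36 (late log replicate 3) to 242 (mid log replicate 1), and late log replicates 1 and 2 gave 40 and 37. Windows of 50 and 200 positions gave 64 of 138 and 17 of 35 calls. Median RPM per window gave 10 higher and 24 lower, and leaving out 1 library gave 27 to 39.

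The replicate numbers did not pair the libraries, as same-numbered deviations correlated at -0.023, -0.36 and 0.36. The replicate block gave 2587 positions, 80 spacer positions and 32 windows.

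Shares turned sign as follows, on the log2 scale. By median RPM per position, 18S was at -0.15, 5.8S at 0.40 and 25S at -0.12. With reads outside 5.8S only, 18S was at -0.0303. Without the 10 highest positions of the repeat, and over all reads as the base, 5.8S was at 0.47, and without 50 positions at each junction its inner share was at 0.53. Within 2 nt the ITS 2/25S junction was at -0.68. With 1 library left out, the ranges that included both signs were -1.15 to 0.14 (ETS 1), -0.0255 to 0.0293 (18S), -0.69 to 0.74 (ETS 1/18S junction), and, for inner shares, -0.88 to 0.24 (spacers), -1.16 to 0.13 (ETS 1), -0.36 to 0.35 (ITS 1), -0.77 to 0.29 (ITS 2) and -0.19 to 0.71 (ETS 2). In percentage points, the highest 5% of positions gave 1.54 in 18S and 4.96 in ETS 2. Without the highest 1% of positions, reads ending in C were at -2.04 in spacers, those ending in U at 0.60 in 18S, and those ending in A, C and U at 4.40, -6.59 and -4.48e-04 in 5.8S. Without the positions at junctions, A, C and U were at 4.82, -2.77 and -1.82 in spacers and U at 0.63 in 18S. The cause of these turns was not tested.

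Depth limits the low positions. A late log value under 2.31 RPM is at most 3 reads in the shallowest library.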

Other observations

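The concentration of reads on few positions also differed between the subphases. In 25S the highest 1% of positions of each library took 10.7%, 10.9% and 11.9% of the region's reads in late log, against 8.14%, 8.79% and 9.98% in mid log, without overlap (exact permutation p = 0.10, adjusted 0.175 over 7 regions). In 5.8S they took 16.7% to 17.5% in late log and 54.5% to 62.0% in mid log. At this cut the 18S region went the other way from 25S, with 7.53% to 7.94% in late log and 8.20% to 8.83% in mid log. With the larger set of highest positions given above, 18S turned to the direction of 25S. The differences, late minus mid log, were then 1.54 percentage points in 18S and 4.35 in 25S.

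In ITS 1 the highest 1% of positions took 30.6%, 26.5% and 33.3% of the reads in late log, against 21.9%, 81.7% and 82.1% in mid log, so that mid log replicates 2 and 3 had over 80% of their ITS 1 reads on a few nucleotides next to 18S and mid log replicate 1 did not.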
